A study of Mus musculus with 37 samples.

Results

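Blautia, Lachnoclostridium, Hungatella, Robinsoniella and Anaerostipes are 5 genera of the bacterial family Lachnospiraceae. They were followed here in the stool of adolescent mice born to alcohol-drinking or water-drinking dams. Their members are all sequence variants that the deposited taxonomy places in 1 of these genera. A sequence variant is a distinct amplicon sequence of the 16S rRNA gene, the marker gene used to identify bacteria. There were 109 such variants among 6100: 37 of Blautia, 51 of Lachnoclostridium, 8 of Hungatella, 2 of Robinsoniella and 11 of Anaerostipes. Together they held 785868 reads, which is 4.87% of 16140229. The genera were selected on their share of reads in alcohol-exposed against control males, where they were high, so values of exposed against control males, and of control males against control females, are given as a description with no test. In the fit used here 4 of the 5 were among the 11 of 111 genera called higher in that contrast (9.91% of genera), and nothing is read from that count. Nor is anything read from the variants of that contrast, where 10 of the 24 member variants tested were called higher (4.16% of all variants) and 0 lower (7.96%). At that boundary Lachnoclostridium, which was called, had a fitted log2 difference of 2.50 (SE 0.71). Anaerostipes, which was not called, had a log2 difference of 2.95 (SE 1.96).

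All animals were adolescent C57Bl/6 mice. Dams of the group with prenatal alcohol exposure (PAE) drank a 10% ethanol solution over the first 10 days of pregnancy and water afterwards, and control dams drank water throughout. The libraries fall into 11 of control males, 10 of PAE males, 7 of control females and 9 of PAE females. No source used here gives the dam, litter, cage or sequencing batch. Litter mates or cage mates cannot be told apart from independent animals, and p-values measure only the spread between libraries. Libraries are named below by their group and library number. For control males 5 and 6 the labels exchange the numbers between 2 libraries of the same group.

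Lachnospiraceae are strictly anaerobic, mostly spore-forming bacteria of the large intestine that ferment plant polysaccharides and host glycans to short-chain fatty acids. Blautia species are known for acetate formation, in part from hydrogen and carbon dioxide. Lachnoclostridium is a taxonomy label that gathers several species once placed in Clostridium, such as [Clostridium] aldenense. Hungatella holds bacteria formerly known as Clostridium hathewayi and relatives, which ferment a wide range of sugars. Robinsoniella peoriensis is an anaerobe first described from swine manure. Anaerostipes caccae forms butyrate from acetate and lactate. All values here are shares of the reads of a library. A rise of a genus and a loss of the other bacteria around it cannot be told apart from such shares.

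Library totals ran from 102672 to 1813237 reads with a median of 293111, and no pair of libraries held identical counts. Phyla usual in the mouse gut held 96.5% to 100% of all reads of a library. Plastid and mitochondrial rows, which come from diet or host, held at most 0.0341%. A list of 12 genera known from reagents and skin held 0.00259% to 0.0636%. Its summed level ranged from 0.00411% to 0.0229% in control males, from 0.00502% to 0.0607% in PAE males, from 0.00259% to 0.0636% in control females and from 0.00295% to 0.0616% in PAE females. Its part in the results was not tested. Of the 109 member variants, 24 passed the filter of at least 5 reads in at least 7 libraries, as did all 5 genera. A variant that is high in few libraries and lacking elsewhere passes such a filter only through the libraries where it is high.

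The 5 genera summed to 0.313% to 1.43% of reads in control males, with a median of 0.758%. In PAE males they ran from 0.869% to 22.8% with a median of 7.59%. In control females the lowest library held 0.413%, the median 0.891% and the highest 18.1%. In PAE females the lowest held 1.39%, the median 1.83% and the highest 17.6%. The high values came from few libraries: PAE males 20 to 24 (13.3% to 22.8%), control females 3 (15.9%) and 10 (18.1%), and PAE females 27 (13.1%) and 28 (17.6%). All other libraries lay at or below 2.37%.

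**Figure D1:**
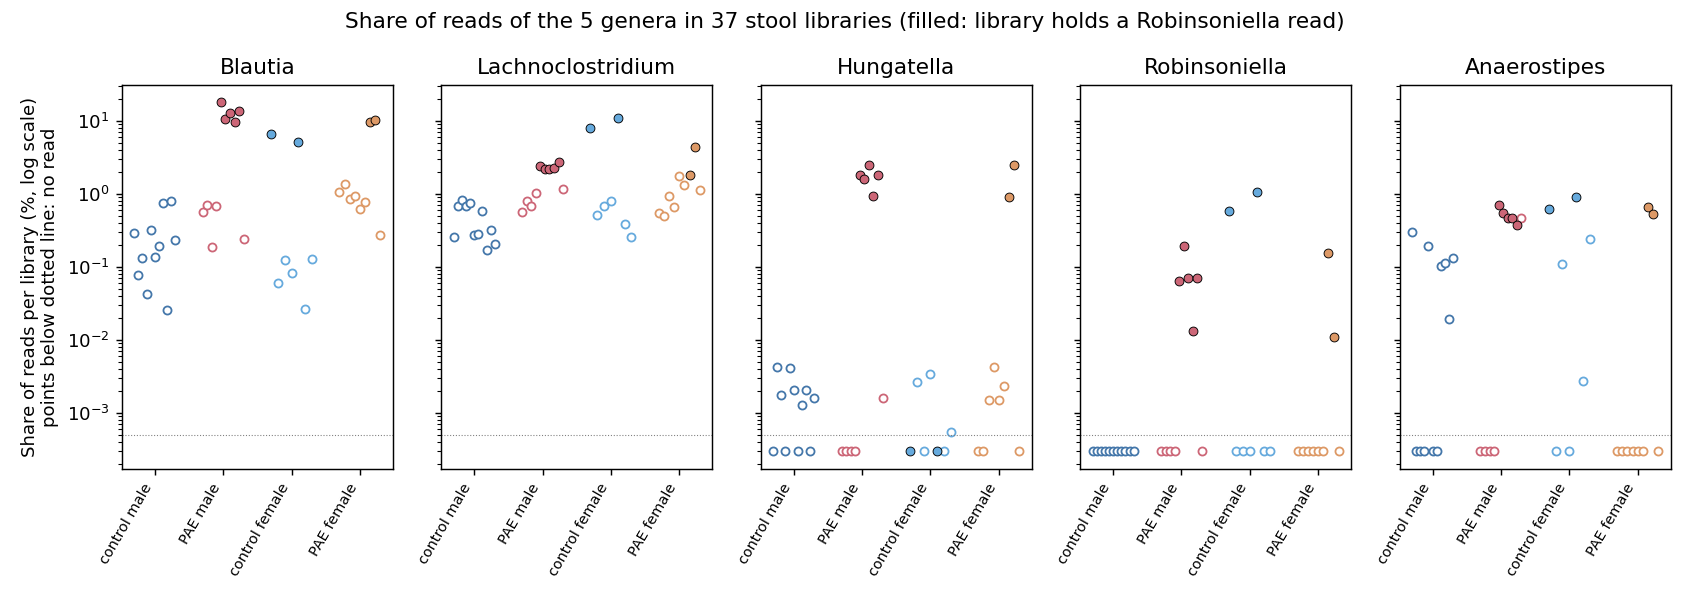
Each panel plots 1 genus, with the share of reads per library in percent on a log axis and the 4 groups side by side. Each point is 1 library, filled where the library holds a Robinsoniella read, and points below the dotted line are libraries with no read. In Blautia the filled points lie at 5.14% and above, and the open ones at 1.34% and below.

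Blautia was the largest of the 5 genera in PAE males. Its share was 0.0258% to 0.800% in control males with a median of 0.196%. In PAE males it ran from 0.186% to 17.8% with a median of 5.17%. PAE males 20 to 24 held 17.8%, 10.4%, 12.9%, 9.63% and 13.4%, all above every control male, while PAE males 16, 17, 18, 19 and 25 held 0.570%, 0.711%, 0.186%, 0.674% and 0.244%, within the control range. The group means were 6.66% ± 6.86 (SD, n = 10) and 0.272% ± 0.264 (SD, n = 11), a ratio of 24.5. Counting error is small beside these spreads: the 95% Wilson interval of PAE male 20 ran from 17.7% to 17.9%, and such intervals cover counting error only.

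In females high shares of Blautia occurred in both groups. Control females 3 and 10 held 6.67% and 5.14%, and the other 5 control females held 0.0269% to 0.130%. PAE females 27 and 28 held 9.55% and 10.2%, and the other 7 PAE females held 0.272% to 1.34%. All 9 PAE females lay above the control female median of 0.125%, and 2 of them lay above every control female. The means were 2.85% ± 4.01 (SD, n = 9) and 1.75% ± 2.88 (SD, n = 7).

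Lachnoclostridium was present in each of the 37 libraries. It held 0.172% to 0.811% in control males (mean 0.456% ± 0.244, SD, n = 11) and 0.567% to 2.71% in PAE males (mean 1.60% ± 0.822, SD, n = 10). Of the 10 PAE males, 7 lay above every control male, including PAE males 20 to 24 at 2.16% and above. The highest values of all were in control females 3 (8.06%) and 10 (11.01%), against 0.253% to 0.805% in the other 5 control females. In PAE females the range was 0.491% to 4.33%, with PAE female 28 highest and PAE female 27 next at 1.79%. The female group means were 3.10% ± 4.48 (SD, n = 7) in controls and 1.44% ± 1.19 (SD, n = 9) in PAE.

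Hungatella was either at about a percent or nearly missing. PAE males 20 to 24 held 1.82%, 1.61%, 2.46%, 0.942% and 1.81%, and PAE females 27 and 28 held 0.910% and 2.46%. Control females 3 and 10, which were high in the other 4 genera, held no Hungatella read. The remaining 28 libraries held between 0 and 12 reads. The mean was 0.00156% ± 0.00156 (SD, n = 11) in control males and 0.865% ± 0.981 (SD, n = 10) in PAE males. In females it was 0.000946% ± 0.00146 (SD, n = 7) in controls and 0.376% ± 0.837 (SD, n = 9) in PAE, a ratio of 397 that rests on PAE females 27 and 28.

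Robinsoniella was the rarest of the 5 and was found in 9 libraries. Its reads numbered 441, 462, 142, 37 and 73 in PAE males 20 to 24, which is 0.0645%, 0.196%, 0.0700%, 0.0134% and 0.0711%. Control females 3 and 10 held 1024 and 2053 reads (0.577% and 1.05%), and PAE females 27 and 28 held 993 and 137 reads (0.155% and 0.0109%). The 95% Wilson interval of the smallest of these counts, in PAE male 23, was 0.00969% to 0.0184%. The other 28 libraries held no read. Control males together held 0 of 4887116 reads, which allows a share of up to 6.14e-05%. Against that limit of 3 reads over the group, the mean share in control females was at least 3794-fold higher.

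The ranges of Anaerostipes overlapped between all groups. Control males held 0% to 0.301% and PAE males 0% to 0.704%, with 5 and 4 libraries at no read. Control females held 0% to 0.908% with 2 libraries at no read. Of the 9 PAE females only 27 and 28 held any, at 0.651% and 0.524%. The group means were 0.0781% ± 0.101 (SD, n = 11) in control males, 0.302% ± 0.273 (SD, n = 10) in PAE males, 0.270% ± 0.359 (SD, n = 7) in control females and 0.131% ± 0.261 (SD, n = 9) in PAE females.

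The same 9 libraries recur in each of these accounts. They are the libraries with any Robinsoniella read, and they were set apart after the values were seen, so no test compares them with the rest. In them Blautia ran from 5.14% to 17.8%, Lachnoclostridium from 1.79% to 11.01% and Anaerostipes from 0.369% to 0.908%. In the other 28 Blautia ran from 0.0258% to 1.34%, Lachnoclostridium from 0.172% to 1.75% and Anaerostipes from 0% to 0.466%. Of the 5 genera, Blautia and Lachnoclostridium had ranges free of overlap, beside Robinsoniella, which defines the 9. For Lachnoclostridium the gap was narrow, 1.75% against 1.79%. How many of all genera separate in this way was not counted, so it is not read as particular to the members. No control male was among the 9.

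Beneath these genus totals, different sequence variants led Blautia and Lachnoclostridium in the 9 libraries and in the other 28. Variants are named by genus and a letter in the order of their mean share over the 37 libraries. The taxonomy gives Blautia A (identifier a36a5513b6563ae8d9e93c0aafd6878e) and Blautia B (identifier a1b97046d3d7d7b1e7f0ffdb5c1eb030) no species name. It calls the species of Blautia C Lachnospiraceae_bacterium and that of Blautia D unidentified.

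**Figure D2:**
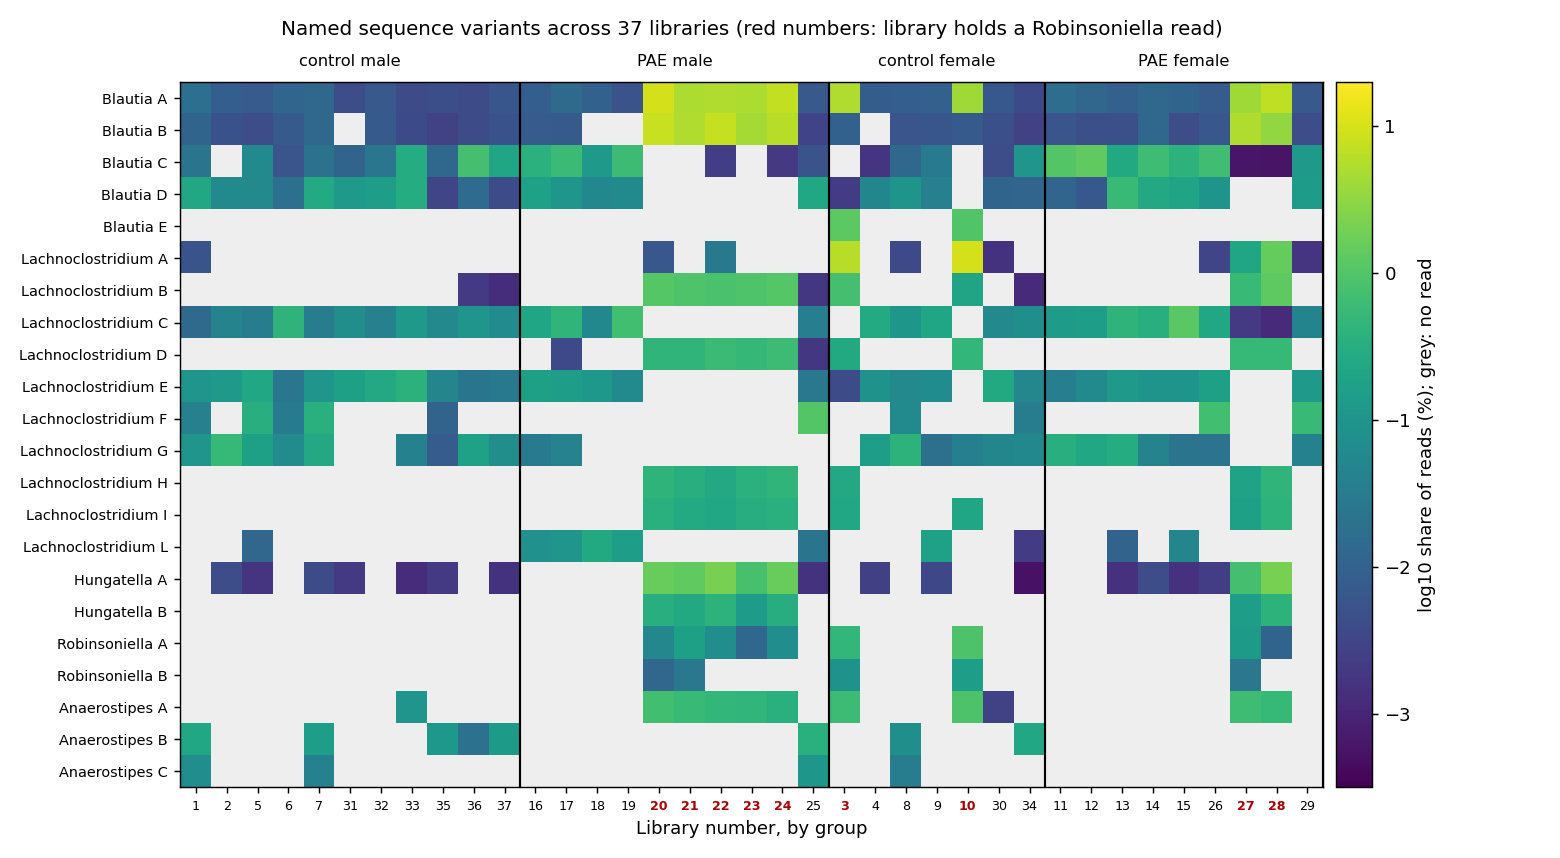
Rows are the variants described in the text and columns are the 37 libraries by group. Colour is the log10 of the share of reads in percent, and grey marks no read. Columns with red numbers hold a Robinsoniella read, and in them Blautia A lies at 4.11% to 9.89% while Blautia C is at 0.00246% or below.

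Blautia A held 7427 to 86917 reads in the 9 libraries, which is 4.11% to 9.89%. In each of the other 28 libraries it held between 14 and 69 reads, 0.00381% to 0.0183%. No library lay between. Blautia B held 6296 to 54049 reads in PAE males 20 to 24 and PAE females 27 and 28, which is 3.26% to 7.91%. In control females 3 and 10 it held only 17 and 14 reads, within the 0 to 48 reads of the other 28 libraries. Blautia E was found in these 2 control females, with 2180 and 1933 reads (1.23% and 0.992%), and had no read in any other library.

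Blautia C and D showed the opposite pattern. Blautia C held 0 to 7 reads in the 9 libraries and up to 4875 reads in the others. Blautia D held 0 to 4 reads in the 9 libraries and 13 to 2307 reads in each of the others. Counted as the variant with most reads of the genus, Blautia A led in 6 and Blautia B in 3 of the 9 libraries, and Blautia C and Blautia D led in 14 each of the remaining 28. Among the 23 libraries with at least 1000 Blautia reads, C led in 10 and D in 4. A leading variant held 39.9% to 98.2% of all Blautia reads of its library.

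Blautia C also varied in level among libraries without Robinsoniella, which were set apart after the values were seen. Its levels are given as a description, and how many of all variants separate in this way was not counted. Without the female libraries that held Robinsoniella, edgeR called 0 of 19 member variants in PAE against control females, beside 20 of all 541. PAE females 11 to 15, 26 and 29 held 1.03%, 1.32%, 0.258%, 0.647%, 0.395%, 0.667% and 0.118%, all above the highest control female, library 34 at 0.102%. PAE males 16 to 19 held 0.375%, 0.581%, 0.121% and 0.609%, while PAE male 25 held 0.00526%. Control males held 0% to 0.776% with a median of 0.0219%. Among them libraries 33, 36 and 37 stood highest, at 0.295%, 0.776% and 0.220%.

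**Figure D3:**
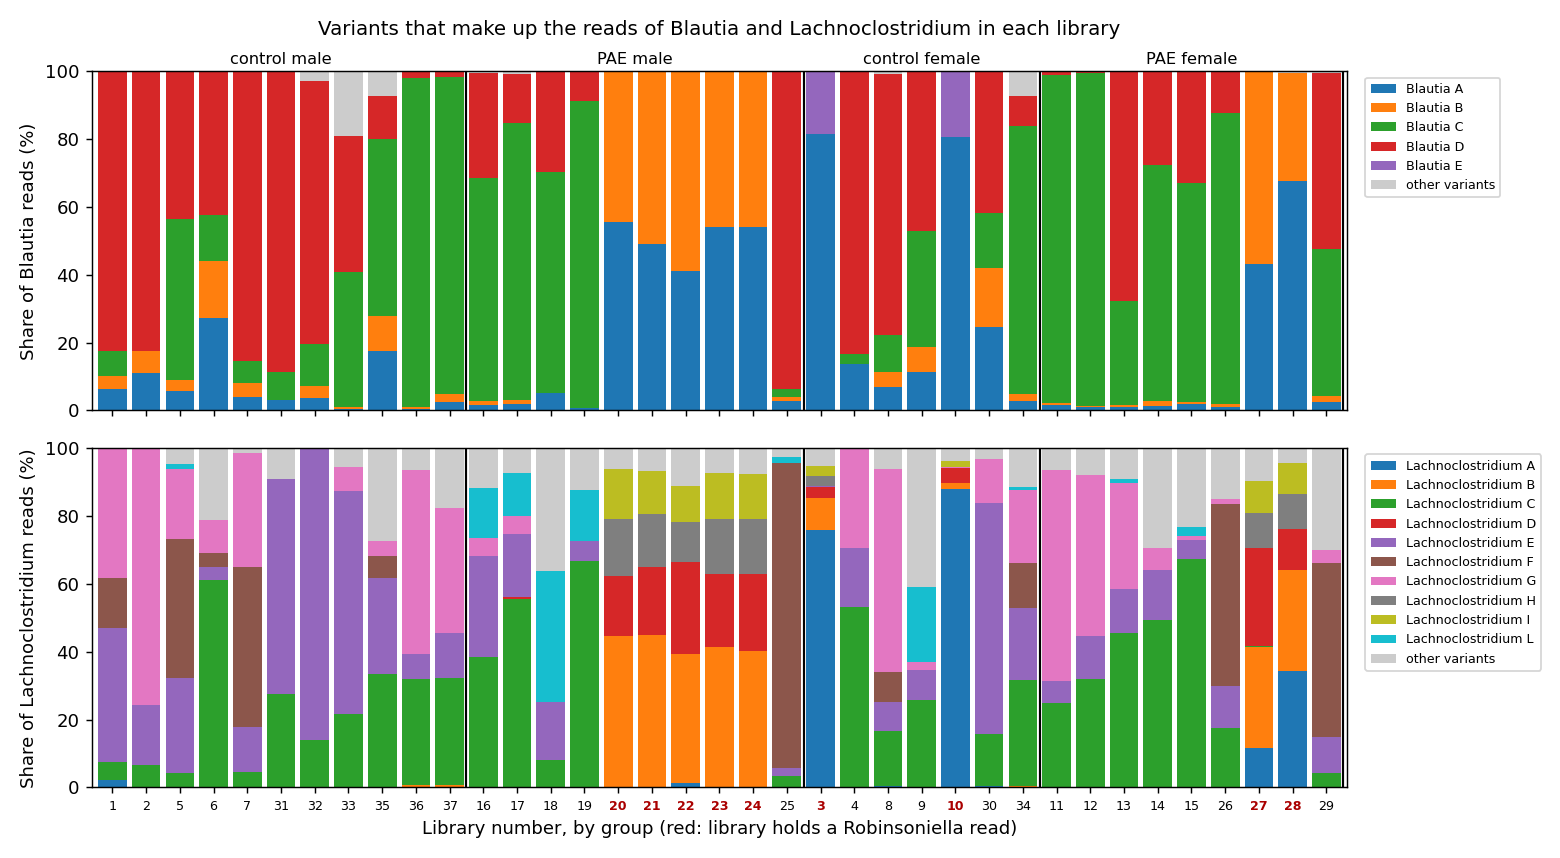
Each bar is 1 library and shows which variants make up its Blautia reads (top) or Lachnoclostridium reads (bottom), in percent of the genus. Libraries stand in the order of their groups, and red numbers mark a Robinsoniella read. Blautia A, B and E fill the bars of the 9 marked libraries, and Blautia C and D lead in the other 28.

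Lachnoclostridium changed its makeup along the same line. Lachnoclostridium A, with no species name, held 10861 and 18882 reads in control females 3 and 10 (6.12% and 9.69%), 1345 in PAE female 27 (0.210%) and 18683 in PAE female 28 (1.49%). In PAE males 20 to 24 its reads numbered 0 to 55, and in the other 28 libraries 0 to 12, so it was a variant of these 4 female libraries. Lachnoclostridium B, named [Clostridium]_aldenense, held 384 to 16125 reads in the 9 libraries (0.197% to 1.29%) and 0 to 22 reads elsewhere. Lachnoclostridium D held 467 to 6659 reads in the 9 libraries and 0 to 14 elsewhere. Lachnoclostridium B led the genus in PAE males 20 to 24 and PAE female 27. Lachnoclostridium A led it in control females 3 and 10 and in PAE female 28.

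All 5 variants named [Clostridium]_aldenense together held 61086 reads in 13 libraries. They reached 1.31% to 1.89% in PAE males 20 to 24, 1.25% and 0.524% in control females 3 and 10, and 0.889% and 2.12% in PAE females 27 and 28. The 4 remaining libraries with any such read held 9 to 22 reads. Variants H and I carry this name too. They fall outside the rule for named taxa, as do E, G and L below, and were picked after their values were seen. Variant I held 368 to 4972 reads in each of the 9 libraries. Variant H held 441 to 5549 in 8 of them and none in control female 10. Neither had a read in the other 28.

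Other variants led Lachnoclostridium in the 28 libraries without Robinsoniella. Lachnoclostridium C, with no species name, held 28 to 6207 reads in each of them and 0 to 15 in the 9, and led the genus in 11. Lachnoclostridium F, also unnamed, was found in 10 of the 28, with up to 7624 reads in PAE male 25 (1.03%), and led in 5. Variants E and G are named Dorea_sp. by the taxonomy, after another genus of the family, and led in 5 and 6 libraries. Variant L led in PAE male 18. The 4 variants with that species name held 25260 reads in 30 libraries, and of these only 7 reads in control female 3 and 72 in control female 10 fell in the 9 libraries.

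Hungatella and Robinsoniella were each made up mainly of 1 variant. Hungatella A held 1537 to 25886 reads in the 7 libraries where the genus reached 0.910% or more, and 82.2% to 84.9% of the genus there. In the other libraries it held at most 12 reads. Hungatella B was found in the same 7 libraries and in no other, with 324 to 4974 reads. Both variants of Robinsoniella are named Robinsoniella_peoriensis. Robinsoniella A (37 to 1745 reads) was found in all 9 libraries. Robinsoniella B was found in 5 of them: PAE males 20 and 21, control females 3 and 10, and PAE female 27.

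Anaerostipes held 2 separate populations. Anaerostipes A, named Anaerostipes_caccae, was the leading variant in each of the 9 libraries, with 367 to 6564 reads. It was found in 2 further libraries, with 793 reads in control male 33 (0.102%) and 19 reads in control female 30. Anaerostipes B, named uncultured_bacterium, was found in none of these 11 libraries. It held 445, 370, 593, 120 and 881 reads in control males 1, 7, 35, 36 and 37, 173 and 4412 in control females 8 and 34, and 2628 in PAE male 25. No PAE female held a read of it. The genus total therefore adds variants A and B, which no library held together, and the similar totals of PAE male 25 (0.466%) and PAE male 23 (0.466%) come from different variants.

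Some pairs of variants kept a narrow ratio. The pairs named here were picked after their values were seen, and only libraries with at least 100 reads of the second variant are used. Hungatella B over A lay between 0.177 and 0.217 in all 7 libraries, with a median of 0.192. Lachnoclostridium I over H lay between 0.807 and 0.943 in 8 libraries, and H over B between 0.306 and 0.404 in the same 8, with no read of H in control female 10. Robinsoniella B over A lay between 0.155 and 0.228 in 5 of 7 libraries, and no read of B was found in PAE male 22 or PAE female 28. Anaerostipes C over B lay between 0.268 and 0.416 in 4 of 8 libraries and was 0 in control males 35 to 37 and control female 34. By contrast Blautia B over A was 0.00176 and 0.00173 in control females 3 and 10 and up to 1.42 elsewhere among the 9. Whether variants of a fixed ratio are gene copies of 1 genome or separate strains was not tested.

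The number of member variants per library overlapped between all groups. At full depth the median was 12 in control males, 14 in PAE males, 15 in control females and 14 in PAE females, with ranges from 7 to 16, 9 to 18, 7 to 19 and 8 to 29. After each library was rarefied once to 102655 reads the medians were 12, 13.5, 15 and 13.

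Outside the 9 libraries Blautia A had low counts in every library. Over the 28 libraries they ranged from 14 to 69 reads and the highest count, 69, was in the largest library, control female 34. Blautia B showed 0 to 48 reads, again with its highest count in control female 34, and Hungatella A 0 to 12. Whether these low counts come from bacteria of the stool or from reads of other libraries was not tested.

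**Figure D4:**
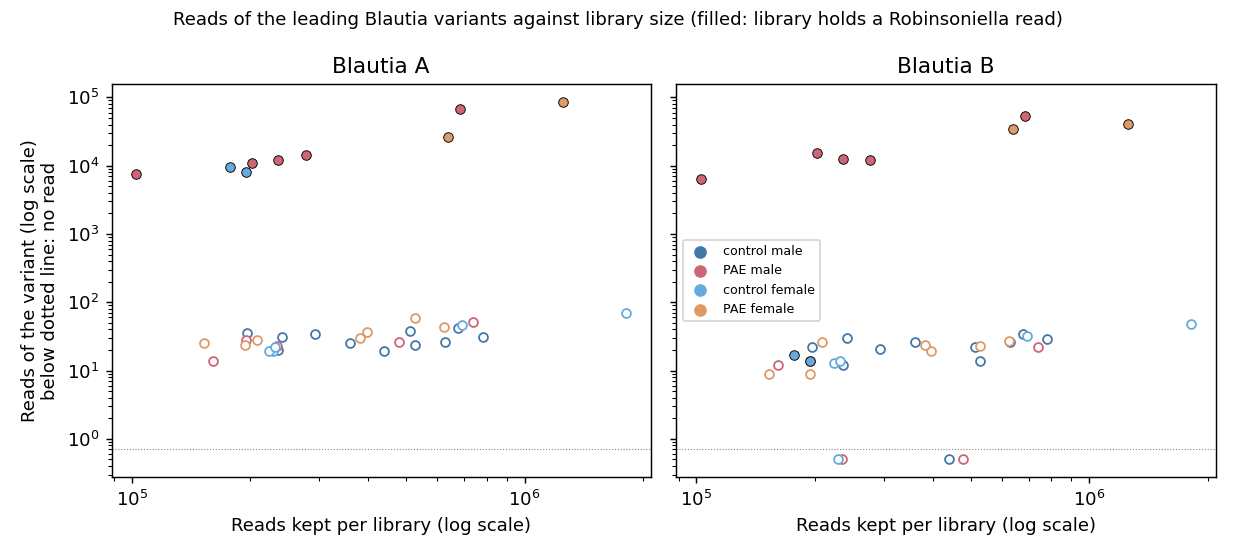
Reads of Blautia A (left) and Blautia B (right) in each library are plotted against the reads kept in that library, both on log axes, coloured by group and filled where the library holds a Robinsoniella read. Points below the dotted line have no read. Open points of Blautia A lie between 14 and 69 reads and filled ones at 7427 and above. For Blautia B the 2 filled points of control females lie with the open ones, at 17 and 14 reads.

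The female libraries bear on whether exposure goes with these genera, and their shares did not enter the choice of the members. The fit is not independent of that choice, since its filter and its spread come from all 37 libraries, males included. Robinsoniella passed the filter only with the PAE males counted. In a fit of females alone edgeR called no genus. None of the 5 genera passed the test in PAE against control females. Hungatella was nearest, with a log2 fold change of 9.45 (SE 2.85) in PAE against control females and an adjusted p of 0.0555 by edgeR's quasi-likelihood test. Blautia had a log2 fold change of 1.08 (SE 1.18, adjusted p = 0.944), Lachnoclostridium -1.05 (SE 0.78, adjusted p = 0.806), Robinsoniella -3.24 (SE 2.41, adjusted p = 0.806) and Anaerostipes -0.51 (SE 2.12, adjusted p = 0.968). Over all genera 3 of 111 (2.70%) were called by edgeR, 1 higher (0.901%) and 2 lower (1.80%), and 11 had an unadjusted p under 0.05, Hungatella among them.

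The result for Hungatella depends on the setting and on 2 libraries. DESeq2 called it, with an adjusted p of 0.00044, and limma on centred log-ratios gave an adjusted p of 0.911. Without PAE females 27 and 28 and control females 3 and 10, an alternative chosen after seeing the data, the edgeR log2 fold change of Hungatella was -0.04 (SE 1.86). In the same fit that of Blautia was 3.10 (SE 1.09, adjusted p = 0.192) and that of Lachnoclostridium 0.77 (SE 0.66, adjusted p = 0.979). Anaerostipes was then called lower in PAE females, at -11.31 (SE 3.13, adjusted p = 0.0401 by edgeR), since none of the remaining 7 held a read. The removal took out the only PAE females with a read of it, so it could only come out lower. Nothing is read from that call. Over all genera edgeR called 3 of 104 in that fit. Removing control females alone, 3, 4, 8, 9, 10, 30 or 34, or PAE female 27 or 28 also left Hungatella uncalled, and removing any of the other 7 PAE females brought it under the threshold, with adjusted p between 0.0390 and 0.163 over all 16 removals.

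**Figure D5:**
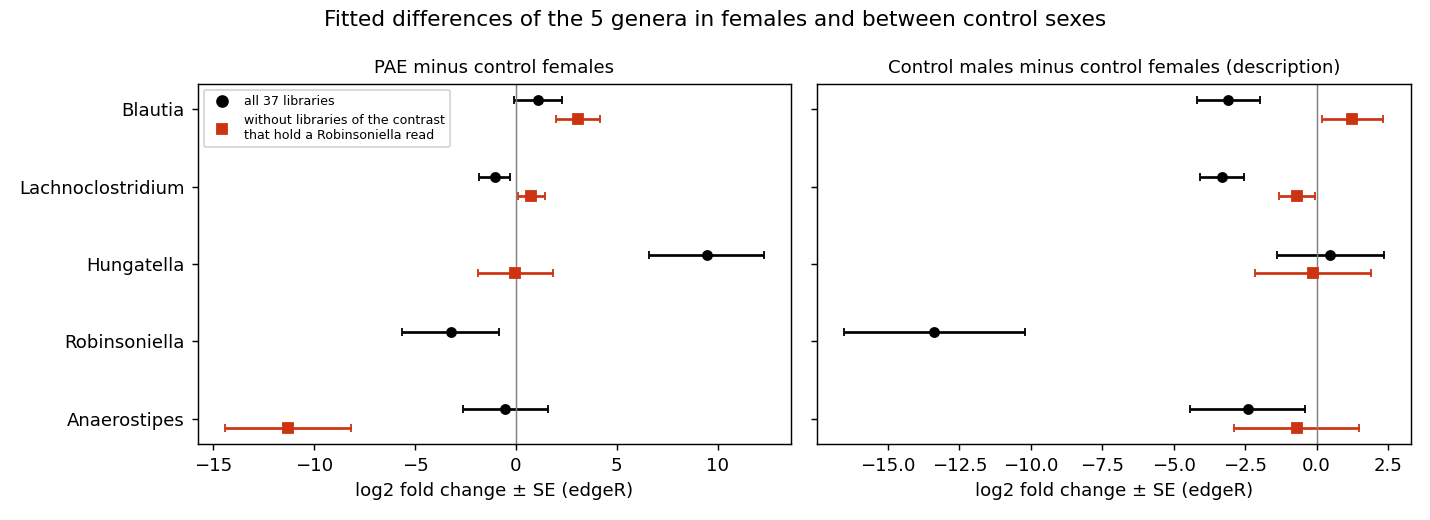
Fitted log2 fold changes with their SE are shown for the 5 genera, PAE minus control females on the left and control males minus control females on the right. Black circles use all 37 libraries and red squares leave out the libraries of the contrast that hold a Robinsoniella read, where Robinsoniella itself has no value. On the left Hungatella moves from 9.45 to -0.04, and on the right Lachnoclostridium moves from -3.30 to -0.68.

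At the level of variants, 68 of 553 (12.3%) differed between PAE and control females by edgeR, 22 higher (3.98%) and 46 lower (8.32%). That fit takes its spread from all 37 libraries, males included. With the libraries of females alone edgeR called 5 variants, none of them a member. In the fit of all libraries 3 of the 24 member variants tested were higher and 1 lower. Blautia B rose with a log2 fold change of 7.35 (SE 2.21, adjusted p = 0.0241), from a mean share of 0.00513% in control females to 0.971% in PAE females. Hungatella A rose by 8.98 (SE 2.77, adjusted p = 0.0276), from 0.000946% to 0.314%. Hungatella B was called higher too (adjusted p = 0.0349), at a mean of 0.0608% against no read in control females, which is at least 722-fold. It passed the filter only through the 7 PAE libraries that held it, PAE males 20 to 24 among them. With no read in control females it could only come out higher, so nothing is read from its call. These 3 calls come from PAE females 27 and 28, the only PAE females above 0.0125% for any of them.

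The lower variant was Anaerostipes B (adjusted p = 0.0213 by edgeR). It held no read in the 9 PAE females and a mean of 0.0458% in control females, at least 669-fold more. It passed the filter only through libraries of the other groups, control males and PAE male 25 among them. With no read in PAE females it could only come out lower, so nothing is read from its call. That mean comes from 2 of 7 control females, libraries 8 (0.0775%) and 34 (0.243%). Without control female 34 the calls on Blautia B (adjusted p = 0.0574), Hungatella A and Anaerostipes B (adjusted p = 0.0612) were lost in edgeR. Hungatella A was also lost without PAE female 28, with an adjusted p of at most 0.0703, and Hungatella B without any 1 of the 7 control females, with an adjusted p of at most 0.0854. Without PAE female 27 or 28, Hungatella B fell below the filter and was not tested. Among the 24 member variants limma on centred log-ratios made no call, beside 9 calls over all 553 variants. Before adjustment its p lay below 0.05 for 2 members and for 60 of all variants. The DESeq2 fit gave 4 calls among the 24, beside 63 over all 553. Blautia C, with a log2 fold change of 4.10 (SE 1.95), was not called (adjusted p = 0.244 by edgeR), though 7 of 9 PAE females lay above every control female. The 2 others were PAE females 27 and 28, with 4 and 7 reads. How many of all variants lie this way was not counted, so nothing is read from it.

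Control males against control females gives the difference between the sexes without exposure. Control males are one side of the contrast on which the members were selected, so this comparison is given as a description with no test. Mean shares of Lachnoclostridium were 0.456% in control males and 3.10% in control females, a fitted log2 difference of -3.30 (SE 0.76). Robinsoniella had no read in 11 control males and a mean of 0.233% ± 0.421 (SD, n = 7) in control females. The fitted log2 difference was -3.08 (SE 1.12) for Blautia, -2.42 (SE 2.03) for Anaerostipes and 0.48 (SE 1.86) for Hungatella. Over all genera edgeR called 5 of 111 (4.50%), 2 higher (1.80%) and 3 lower (2.70%) in males. Lachnoclostridium and Robinsoniella were among the 3, and nothing is read from that count.

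The low values of control males against control females come from control females 3 and 10. Without these 2, chosen after seeing the data, the log2 difference was -0.68 (SE 0.62) for Lachnoclostridium and 1.25 (SE 1.06) for Blautia, and Robinsoniella had no read left in either group. In the same fit edgeR called 0 of 109 genera, with 4 at an unadjusted p under 0.05 and no member among them.

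At the level of variants, edgeR called 5 of 553 (0.904%) between control males and control females, none higher (0%). All 5 were members and lower in males, which again uses values of the choice. Nothing is read from that count or from the counts of calls that follow for these 2 groups. DESeq2 called 32 variants, 18 higher and 14 lower, of which 8 were members, and limma on centred log-ratios called 0. Blautia A had a fitted log2 difference of -8.45 (SE 1.90), with means of 0.00808% in control males and 1.37% in control females. Lachnoclostridium A had -13.40 (SE 3.03), with 11 reads in a single control male and a mean of 2.26% in control females. Robinsoniella A, Lachnoclostridium D and Lachnoclostridium I had no read in any control male. Against 3 reads over the control males, the control female mean was at least 3208-fold higher for Robinsoniella A, 1703-fold for Lachnoclostridium D and 1036-fold for Lachnoclostridium I.

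All 5 are variants with their highest control shares in libraries 3 and 10. Without these 2 control females the log2 difference in Blautia A was 0.04 (SE 1.51), and edgeR called 0 of 549 variants, with 29 at an unadjusted p under 0.05 of which 3 were members. Whether the effect of exposure differs between the sexes was not tested, since that test would use the contrast that chose the members.

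Other Lachnospiraceae were scarce in the 9 libraries. By group they held a mean of 22.4% ± 5.71 (SD, n = 11) in control males, 8.37% ± 9.10 (SD, n = 10) in PAE males, 13.7% ± 9.29 (SD, n = 7) in control females and 17.1% ± 11.4 (SD, n = 9) in PAE females. Their largest genus, Lachnospiraceae_NK4A136_group, held 0.0107% to 1.07% in the 9 libraries with Robinsoniella and 4.72% to 23.9% in the other 28. Reads of the family without a genus name held 0.00313% to 0.110% and 2.50% to 15.3%, and the genus A2 0% to 0.00513% and 0.0255% to 3.75%. The ranges did not overlap for any of the 3, which are named as the most abundant of the family outside the members. The same was not counted over all genera, so it is not read as a trait of this family.

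Between the study's groups this family showed no call. Of 25 other genus-level taxa of the Lachnospiraceae 15 could be tested, and edgeR called 0 in females and 0 in control males against control females, with 0 at an unadjusted p under 0.05 in either. Their median log2 fold change was 0.40 in PAE against control females, beside -0.15 over all 111 genera. In control males against control females it was 0.93, beside 0.10 over all genera. In PAE against control males 14 of the 15 were lower, beside 63 of all 111 genera. The median was -1.55 beside -0.30 over all genera, given without a test. Of 9 butyrate-forming genera listed from textbook knowledge only Lachnospiraceae_NK4A136_group, Roseburia and [Eubacterium]_xylanophilum_group could be tested, and edgeR called 0 of the 3 in females and in control males against control females.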

How the data were processed

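Stool DNA of 37 mice was amplified over the V3–V4 region of the 16S rRNA gene and sequenced on an Illumina NovaSeq in paired reads of 250 cycles, per the labels' protocols. Bowtie2, cutadapt and a mouse genome build, GRCm39, appear in the submitters' processing notes without role or version. No source used here gives the denoiser, the classifier or the taxonomy reference. The authors deposited whole-number counts of reads per sequence variant, not normalized, and a separate table of taxon names.

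Rows without taxonomy, unassigned, eukaryotic, plastid or mitochondrial were left out, which kept 6085 of 6100 rows. Shares are percent of the reads kept, and ratios are of group means. Shares of gut phyla, of plastid and mitochondrial rows and of reagent and skin genera are percent of all reads. Genera and variants that reached 5 reads in 7 or more libraries (111 of 431 genera, 553 variants) were tested with edgeR 4.0.16 in R 4.3.3: TMM scaling, quasi-likelihood F-test, 4 group means over 37 libraries, Benjamini-Hochberg adjustment over all features, and a call at an adjusted p under 0.05. The SE given for edgeR is the absolute log2 fold change divided by the square root of the F statistic, not a separately estimated error. The fit was also run on simulated counts with a fixed spread around the mean of each feature. Those counts do not hold taxa nearly missing from most libraries and high in few, so nothing is read from that run here. DESeq2 1.42.0, a limma 3.58.1 fit of centred log-ratios (0.5 added to each count), other scalings, filters, library subsets and depth as a covariate were alternatives. In each genus the 4 variants with the highest mean share are named, and any variant at 1% or more in a library. Control males against control females was planned as a test and is given as a description, since control males entered the choice of members. The members, lists and rules were chosen with earlier results of these data known.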

Additional observations from a re-analysis of the deposited data

Results flagged for a closer look

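In 18 groups of 4 to 10 libraries the highest or lowest share of a genus was compared with its neighbour by Dixon's ratio. In 4 of them 1 library stood apart. Chance alone sets 1 apart in about 1 in 20 such groups if values are independent and normally spread. Shares with many zeros, taken from the same libraries for each genus, do not meet that, so the 4 are not read as an excess. PAE female 28 was highest of the PAE females in Lachnoclostridium, at 4.331% with the next at 1.79%. It was also highest in Hungatella, at 2.459% with the next at 0.9099%. PAE female 27 was highest in Robinsoniella, at 0.1553% with the next at 0.01092%. PAE male 21 was highest of the PAE males in Robinsoniella, at 0.1958% with the next at 0.07111%.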

How the results depend on the processing

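Scaling by TMMwsp or library totals and keeping all rows changed no count of calls by over 1.5 times. In PAE against control females, 3 genera and 68 variants were called. DESeq2 called 6 genera, limma 1 and 9 variants, the looser filter (1 read in 2 libraries) 72 and 464, the stricter filter (10 reads in 18 libraries) 0 and 2. Depth as a covariate gave 41 variants, controls 1 to 10 alone 1 genus and 7 variants, controls 30 to 37 alone 1 genus, females alone 0 and 5, PAE females 11 to 15 alone 0 and 0, PAE females 26 to 29 alone 9 and 3, and leaving out libraries with Robinsoniella, chosen after seeing the data, 20 variants. Leaving out single libraries gave 1 to 5 genera and 19 (without control female 34) to 68 variants. In control males against control females, whose male side entered the choice of members, 5 genera and 5 variants were called. DESeq2 called 10 and 32, limma 0 and 0, the looser filter 31 and 14, the stricter filter 1 variant, either subset of controls 0 and 0, control libraries alone 1 variant, and the set without control females 3 and 10 called 0 and 0. Leaving out single libraries gave 0 (without control female 3 or 10) to 6 genera and 3 to 8 variants.

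Log2 fold changes of members that changed sign were as follows, none of them called. In PAE against control females Blautia was -0.11 with depth as a covariate and -1.37 with PAE females 11 to 15 alone, where Blautia B was -0.25. Lachnoclostridium was 2.11 with controls 30 to 37 alone, 0.85 with PAE females 26 to 29 alone, 0.77 without libraries with Robinsoniella, and between -1.53 (without PAE female 28) and 0.48 (without control female 10) with single libraries left out. Robinsoniella was 10.15 with controls 30 to 37 alone. Anaerostipes was 0.61 with controls 30 to 37 alone, 1.38 with PAE females 26 to 29 alone, 0.14 without control female 3, and between -1.87 (without PAE female 27) and 0.69 (without control female 10) with single libraries left out. Without libraries with Robinsoniella, Hungatella was -0.038 and Hungatella A -0.039. In control males against control females Blautia was 1.89 with controls 30 to 37 alone and 1.25 without control females 3 and 10, and then Hungatella was -0.12 and Blautia A 0.036. The causes were not tested beyond the libraries left out.

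No paired analysis was possible because the groups share no library number. The median number of member variants per library was 14 at full depth and 13 when rarefied. With at least 1000 reads of a genus asked for, Blautia A and B together still led in 9 libraries, while those led by Blautia C went from 14 to 10, by Blautia D from 14 to 4 and by Anaerostipes B from 8 to 2. The high shares rest on 9 libraries whose dam, litter and cage are unknown here, and shares do not give amounts.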
